A study of Arabidopsis thaliana with 15 samples.

Results

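A set of 10 Arabidopsis thaliana genes of seed filling and late embryo development was followed across the 5 genotypes of the series. They were chosen by locus for what they encode, by a rule that names no measured value but with earlier results of these data known, and are 10 of the 33602 loci counted. PAP85 (AT3G22640), AT2G28490 and AT2G18540 encode vicilin-like globulins, CRA1 (AT5G44120) encodes a cruciferin, M17 (AT2G41260) and M10 (AT2G41280) are late embryogenesis abundant (LEA) genes, EM1 (AT3G51810) and EM6 (AT2G40170) encode the small Em proteins, and OLEO1 (AT4G25140) and OLEO2 (AT5G40420) encode oleosins. Messenger RNA had been sequenced from whole Col-0 seedlings, grown for 3 weeks on diluted MS medium with 8 h of light and 16 h of dark. Each genotype had 3 biological repeats: the triple mutant ebs shl lhp1, the single mutant emf1, the double mutant ebs shl, the single mutant lhp1, and WT. The labels give no alleles and no treatment. RNA of ebs shl lhp1 and emf1 was isolated with the miRNeasy Micro kit and that of ebs shl, lhp1 and WT with the RNeasy Plus Mini kit, so a difference across that line may be of genotype or kit, which cannot be told apart.

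Storage globulins and cruciferins are laid down in the maturing embryo as nitrogen reserves, oleosins coat the oil bodies, and LEA and Em proteins accumulate as the seed dries. After germination these genes are kept off, in part by Polycomb group proteins, which mark chromatin by methylating a lysine of histone H3. LHP1, EBS and SHL are plant proteins that bind this mark, and EMF1 is a plant Polycomb group protein that acts with it. In seeds, the RY element (CATGCA) is bound by the B3 regulators ABI3, FUS3 and LEC2, and the ABRE core (ACGTG) by bZIP factors such as ABI5 in abscisic acid responses.

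The 300 bases before the annotated gene start are shown for the 5 genes that had enough counts to be tested, since tests between genotypes rest on these. Sequences run 5′ to 3′ on the gene's strand and were read from the RefSeq TAIR10.1 genome by locus name, whereas the counts were made on TAIR10. Capitals mark RY (CATGCA or its reverse complement TGCATG) and ABRE core (ACGTG or CACGT) matches, where overlapping matches run together.
PAP85 (TAIR10.1, chr3:8013942-8014241, minus strand): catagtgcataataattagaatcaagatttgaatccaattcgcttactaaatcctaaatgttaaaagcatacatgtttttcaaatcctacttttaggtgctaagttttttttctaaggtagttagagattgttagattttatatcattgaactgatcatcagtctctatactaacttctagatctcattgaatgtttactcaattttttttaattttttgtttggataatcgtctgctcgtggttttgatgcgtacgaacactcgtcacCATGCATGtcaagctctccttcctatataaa
M17 (TAIR10.1, chr2:17206152-17206451, plus strand): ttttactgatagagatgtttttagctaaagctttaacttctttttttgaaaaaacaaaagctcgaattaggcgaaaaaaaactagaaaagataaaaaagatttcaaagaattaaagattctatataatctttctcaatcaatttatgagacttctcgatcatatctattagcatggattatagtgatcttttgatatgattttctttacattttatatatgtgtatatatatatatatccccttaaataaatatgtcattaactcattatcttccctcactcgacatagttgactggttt
EM1 (TAIR10.1, chr3:19214422-19214721, plus strand): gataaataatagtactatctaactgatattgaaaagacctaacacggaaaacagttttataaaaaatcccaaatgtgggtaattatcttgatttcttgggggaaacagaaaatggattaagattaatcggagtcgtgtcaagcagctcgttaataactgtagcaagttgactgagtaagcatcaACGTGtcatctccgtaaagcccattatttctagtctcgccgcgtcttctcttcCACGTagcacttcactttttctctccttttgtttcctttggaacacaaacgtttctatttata
EM6 (TAIR10.1, chr2:16780369-16780668, minus strand): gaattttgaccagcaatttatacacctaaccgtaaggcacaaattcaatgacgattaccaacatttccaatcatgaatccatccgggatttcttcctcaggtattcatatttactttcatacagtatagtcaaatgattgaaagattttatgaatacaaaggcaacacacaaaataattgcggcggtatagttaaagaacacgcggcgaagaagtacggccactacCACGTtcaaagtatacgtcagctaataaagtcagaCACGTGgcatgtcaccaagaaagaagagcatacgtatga
AT2G18540 (TAIR10.1, chr2:8045034-8045333, minus strand): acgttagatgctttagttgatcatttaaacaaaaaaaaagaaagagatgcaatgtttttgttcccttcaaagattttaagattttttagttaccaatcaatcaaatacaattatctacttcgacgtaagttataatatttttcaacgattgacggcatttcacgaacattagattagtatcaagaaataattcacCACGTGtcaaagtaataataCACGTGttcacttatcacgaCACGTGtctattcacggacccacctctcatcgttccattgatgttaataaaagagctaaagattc
Of these 5 windows, that of PAP85 held a single RY site, made of 2 overlapping matches 31 to 24 bases before the start, and no ABRE core. The windows of EM1 and EM6 held 2 ABRE core sites each and that of AT2G18540 held 3, none with an RY match. The window of M17, the gene with the highest counts, held neither. Over all 10 genes the RY letters occurred in 5 windows, against 10.254% of 27443 windows of this length before annotated genes, and the ABRE core in 6, against 25.5839%. Searched on both strands too, a telobox (AAACCCTAG) and a GAGA repeat (GAGAGAGA) were in 0 of the 10 windows, against 1.4211% and 5.7173% of all windows. A match of letters is a description of these windows and not a site in use.

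**Figure D1:**
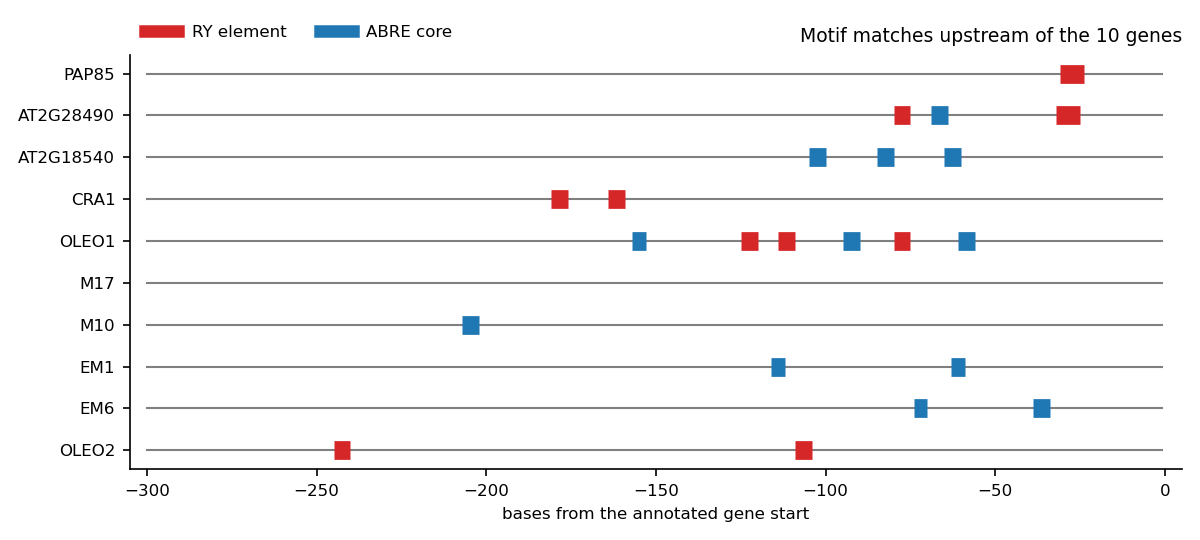
RY (red) and ABRE core (blue) matches in the 300 bases before the annotated start of each of the 10 genes, drawn to scale along the x axis in bases from the start. AT2G28490 and OLEO1 carry both motifs, M17 carries neither, and EM1, EM6, M10 and AT2G18540 carry the ABRE core without RY.

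The libraries held 11730989 to 16247262 counts, so 1 count was 0.0615 to 0.0852 counts per 1000000 (CPM). Levels below are CPM normalised with TMM factors. Of the mutated genes, EBS had 1.99 to 2.51 CPM in libraries labelled ebs shl lhp1 and 1.67 to 3.37 CPM in ebs shl, against 24.1 to 27.4 CPM in WT. LHP1 had 19.3 to 23.4 CPM in libraries labelled ebs shl lhp1 and 10.1 to 10.8 CPM in lhp1, against 18.6 to 20.8 CPM in WT, so its transcript was not lower in libraries labelled ebs shl lhp1. SHL had 160 to 222 CPM in libraries labelled ebs shl lhp1 and 204 to 225 CPM in ebs shl, against 38.1 to 43.6 CPM in WT. EMF1 had 21.8 to 23.9 CPM in emf1, against 27.5 to 28.7 CPM in WT. In the other mutants EMF1 stood above WT, at 71.8 to 87.1 CPM in libraries labelled ebs shl lhp1, 116 to 121 CPM in ebs shl and 43.6 to 49.6 CPM in lhp1. LHP1 overlaps a gene on the opposite strand, so its level is uncertain where the counting's use of strand is not given. The overlapping gene held at most 40 counts in any library. LHP1 itself held 761 counts over the libraries labelled ebs shl lhp1 and 482 over those of lhp1. The transcripts of LHP1 and SHL therefore do not check the labels ebs shl lhp1 and ebs shl, and these groups are called the labelled triple mutant and the labelled double mutant below. The small difference of EMF1 between emf1 and WT is only a weak check of the label emf1. Nuclear ribosomal RNA took 1.40% ± 0.366 of counts in the labelled triple mutant and 0.703% ± 0.118 in emf1, against 0.264% ± 0.0594 in the labelled double mutant, 0.266% ± 0.0589 in lhp1 and 0.294% ± 0.0684 in WT (SD, n = 3 each). Its part in the results was not tested.

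The seed genes were almost silent in WT seedlings and were read at widely different levels in the mutants. Summed over the 10 genes, the level was 102 ± 14.1 CPM in the labelled triple mutant, 56.8 ± 10.99 CPM in emf1, 30.2 ± 0.821 CPM in the labelled double mutant and 4.04 ± 2.41 CPM in lhp1, against 0.779 ± 0.526 CPM in WT (SD, n = 3 each). PAP85 and M17 alone gave 92.2% of these counts in the labelled triple mutant, 97.7% in emf1 and 92.8% in the labelled double mutant, against 47.8% in lhp1 and 50.0% in WT. The sum in those mutants is therefore the sum of 1 storage globulin and 1 late embryogenesis gene, not of seed genes at large. In bulk seedlings, fewer cells of a type and less RNA per cell cannot be told apart.

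**Figure D2:**
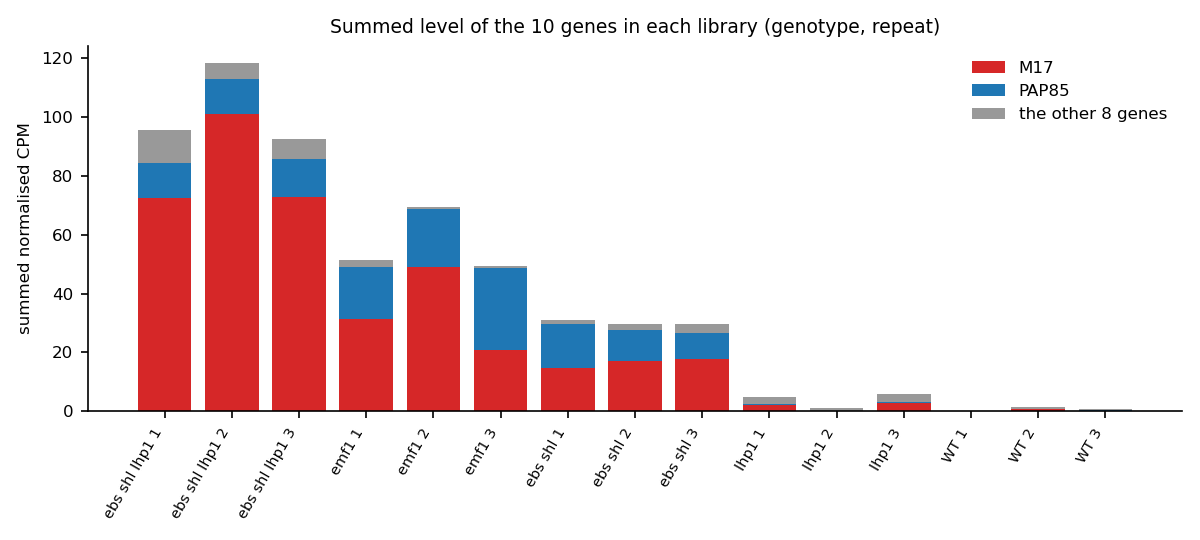
Summed normalised CPM of the 10 genes (y axis) in each of the 15 libraries (x axis), stacked as M17, PAP85 and the other 8 genes. M17 is the largest share in the labelled triple mutant, PAP85 and M17 are nearer to each other in emf1 and the labelled double mutant, and the bars of lhp1 and WT lie close to 0.

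Only 5 of the 10 genes, PAP85, AT2G18540, M17, EM1 and EM6, passed the filter on low counts and were tested. A difference is called where the p of edgeR's quasi-likelihood F test, adjusted over all 20477 tested loci (Benjamini-Hochberg), is under 0.05. Against WT, 5 of 5 were higher in the labelled triple mutant, where 34.6% of all tested loci were called higher. In emf1, 2 of 5 were higher, PAP85 and M17, where 30.7% of all loci were, and the same 2 were higher in the labelled double mutant, where only 5.31% of all loci were. In lhp1, 0 of 5 passed, where 1.31% of all loci were called in either direction, although 3 had an unadjusted p under 0.05 and DESeq2 also called 0. The median log2 fold change of the 5 tested genes was 7.05 in the labelled triple mutant, 0.70 in emf1, 2.30 in the labelled double mutant and 2.40 in lhp1, against medians of -0.017, -0.033, -0.003 and 0.003 over all tested loci. Genes at these counts could pass the filter through the genotype where they are high, so these medians describe the 5 genes and support nothing. The 4 comparisons share their WT libraries.

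PAP85, a vicilin-like storage globulin of the embryo, was on in 3 of the 4 mutants. It had 11.6, 11.7 and 12.7 CPM in the labelled triple mutant, 17.5, 19.9 and 28.0 CPM in emf1, 15.2, 10.5 and 9.09 CPM in the labelled double mutant and 0.297, 0.187 and 0.183 CPM in lhp1, against 0.121, 0 and 0.126 CPM in WT. The emf1 libraries were the highest, the labelled triple and double mutants overlapped, and lhp1 and WT lay far below all of them. The mean was 146-fold that of WT in the labelled triple mutant (log2 fold change 7.05 ± 0.42 SE, edgeR adjusted p = 2.0e-08), 265-fold in emf1 (7.91 ± 0.40, adjusted p = 2.0e-08) and 141-fold in the labelled double mutant (7.0 ± 0.41, adjusted p = 1.6e-07). In lhp1 it was 2.70-fold that of WT, on 10 against 4 counts, and did not pass the test (edgeR adjusted p = 0.603). The WT mean rests on those 4 counts, so the size of each ratio is less certain than its direction.

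The other vicilin-like genes and the cruciferin gave far fewer counts. AT2G18540 had 6.42, 0.285 and 1.06 CPM in the labelled triple mutant, 0.0772, 0.146 and 0.0889 CPM in emf1, 0.126, 0.439 and 0.446 CPM in the labelled double mutant and 0.742, 0.311 and 0.671 CPM in lhp1, against 0, 0.122 and 0.0628 CPM in WT. Repeat 1 of the labelled triple mutant stood far above every other library, while its repeat 2 lay within the range of the labelled double mutant and below lhp1. The labelled triple mutant was 42.0-fold WT, on 88 against 3 counts, with an exact 95% counting interval of 13.0 to 194 that covers counting error only (log2 fold change 5.19 ± 1.11 SE, edgeR adjusted p = 0.00083). Without repeat 1 the log2 fold change was 3.37 and without WT repeat 2 it was 6.02 (edgeR adjusted p = 0.0032 and 0.0025). Its transcript aligned with that of another cupin gene, AT4G36700, at 66.5% identity over 56.8% of its length, and AT4G36700 too was highest in repeat 1 of the labelled triple mutant.

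AT2G28490 and CRA1 did not pass the filter, and each was highest in another genotype than AT2G18540. AT2G28490 had 0, 1 and 10 counts in the labelled triple mutant, 7, 2 and 0 in emf1, 2, 0 and 0 in the labelled double mutant and 5, 7 and 11 in lhp1, against 0 in every WT library. It was read in each lhp1 library, at a mean of 0.492 ± 0.158 CPM (SD, n = 3) and at least 8.02-fold WT with a floor of 3 counts over the 3 WT libraries. CRA1 had 2, 3 and 6 counts in the labelled triple mutant, 3, 1 and 0 in emf1, 7, 10 and 25 in the labelled double mutant and 1, 0 and 1 in lhp1, against 0, 2 and 1 in WT. The labelled double mutant, at 0.855 ± 0.489 CPM, lay above every other genotype and was 13.9-fold WT with a counting interval of 4.60 to 72.6. In a fit with no filter on low counts CRA1 would be called there (log2 fold change 3.64 ± 0.82 SE, edgeR adjusted p = 0.0109). In the same fit AT2G28490 would be called in the labelled triple mutant (log2 fold change 5.08 ± 1.84 SE, edgeR adjusted p = 0.0305) and in emf1 (4.82 ± 1.89, adjusted p = 0.0486). It would not be called in lhp1, although its log2 fold change was largest there (5.87 ± 1.67, edgeR adjusted p = 0.16). Of the 29031 loci in that fit, 6967 were called higher in the labelled triple mutant, 6127 in emf1 and 162 in lhp1. The adjustment is stricter where fewer loci differ.

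M17, a late embryogenesis gene of the maturing embryo, was the most abundant of the 10 genes. It had 72.5, 101 and 72.8 CPM in the labelled triple mutant, 31.4, 48.9 and 20.8 CPM in emf1, 14.6, 17.3 and 17.6 CPM in the labelled double mutant and 2.08, 0.124 and 2.93 CPM in lhp1, against 0, 0.672 and 0.251 CPM in WT. The genotypes stood apart in that order except lhp1 and WT, which overlapped through repeat 2 of lhp1. M17 was 267-fold WT in the labelled triple mutant (log2 fold change 8.02 ± 0.67 SE, edgeR adjusted p = 2.8e-07), 110-fold in emf1 (6.74 ± 0.68, adjusted p = 2.4e-06) and 53.6-fold in the labelled double mutant (5.71 ± 0.70, adjusted p = 0.00013). In lhp1 it was 5.55-fold WT, on 78 against 15 counts, and did not pass (edgeR adjusted p = 0.302, log2 fold change 2.44, and 1.73 to 3.69 with adjusted p of 0.066 to 0.685 when each library was left out in turn). WT repeat 2 held 11 of the 15 WT counts, and without it the log2 fold changes were 9.29, 8.07 and 6.96 in the labelled triple mutant, emf1 and the labelled double mutant. Without WT repeat 1, which had no count, the first of them was 7.44.

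M10, a gene related to M17 that lies close to it on chromosome 2, did not follow it in the labelled triple mutant. It had 0, 0 and 6 counts in the labelled triple mutant, 19, 3 and 5 in emf1, 9, 5 and 15 in the labelled double mutant and 2, 0 and 0 in lhp1, against 0, 3 and 2 in WT. In the labelled triple mutant, where M17 was highest, M10 overlapped WT, and the highest means of M10 were 0.710 ± 0.665 CPM in emf1 and 0.589 ± 0.236 CPM (SD) in the labelled double mutant. These means were 6.90-fold and 5.72-fold WT, on 27 and 29 counts against 5, and neither group overlapped WT. The 2 transcripts align at 77.05% to 79.2% identity, so how the counting split reads between them is uncertain. M10 did not pass the filter, and with no filter it would be called in emf1 (log2 fold change 2.70 ± 1.01 SE, edgeR adjusted p = 0.0365).

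The Em genes, whose small hydrophilic proteins accumulate in the drying seed, were read mainly in the labelled triple mutant. EM1 had 9, 37 and 38 counts there, 0 in every emf1 library, 1, 0 and 0 in the labelled double mutant and 0, 0 and 1 in lhp1, against 0 in every WT library. At 0.837, 3.51 and 2.51 CPM the labelled triple mutant was the one genotype in which all repeats had EM1 counts. It was at least 37.2-fold WT and at least 28.9-fold emf1 (floor of 3 counts per group), and both differences passed (edgeR adjusted p = 1.0e-04 and 0.00042). EM1 had 84 counts there and at most 1 in any other genotype, so it passed the filter on low counts only through the genotype where it is high. EM6 had 3.82, 1.23 and 1.52 CPM in the labelled triple mutant, 0.154, 0.0728 and 0 CPM in emf1, 0.0629, 0.512 and 0.279 CPM in the labelled double mutant and 1.11, 0.124 and 0.853 CPM in lhp1, against 0.121, 0.183 and 0.0628 CPM in WT. Every labelled triple-mutant library lay above all others, and lhp1 repeats 1 and 3 came next. EM6 was 17.9-fold WT in the labelled triple mutant (log2 fold change 4.05 ± 0.80 SE, edgeR adjusted p = 0.00045), and 3.42 on the log2 scale without its repeat 1. In lhp1 it was 5.70-fold WT, on 31 against 6 counts, and did not pass (edgeR adjusted p = 0.302). EM1 and EM6 aligned over 194 bases at 79.4% identity.

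The oleosin genes stayed near 0 in every genotype. OLEO1 had 4 counts in all over the labelled triple mutant, 1 in emf1 and 1 in the labelled double mutant, against 0 in lhp1 and 0 in WT. OLEO2 had 4 counts in the labelled triple mutant, 1 in emf1, 0 in the labelled double mutant and 11 in lhp1, against 2 in WT. The most for OLEO2 in a single library was 7 counts, in lhp1 repeat 3. Each overlaps a neighbouring gene on the opposite strand, and the strand setting of the counting is not given in the sources used here, so even these few counts are uncertain.

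**Figure D3:**
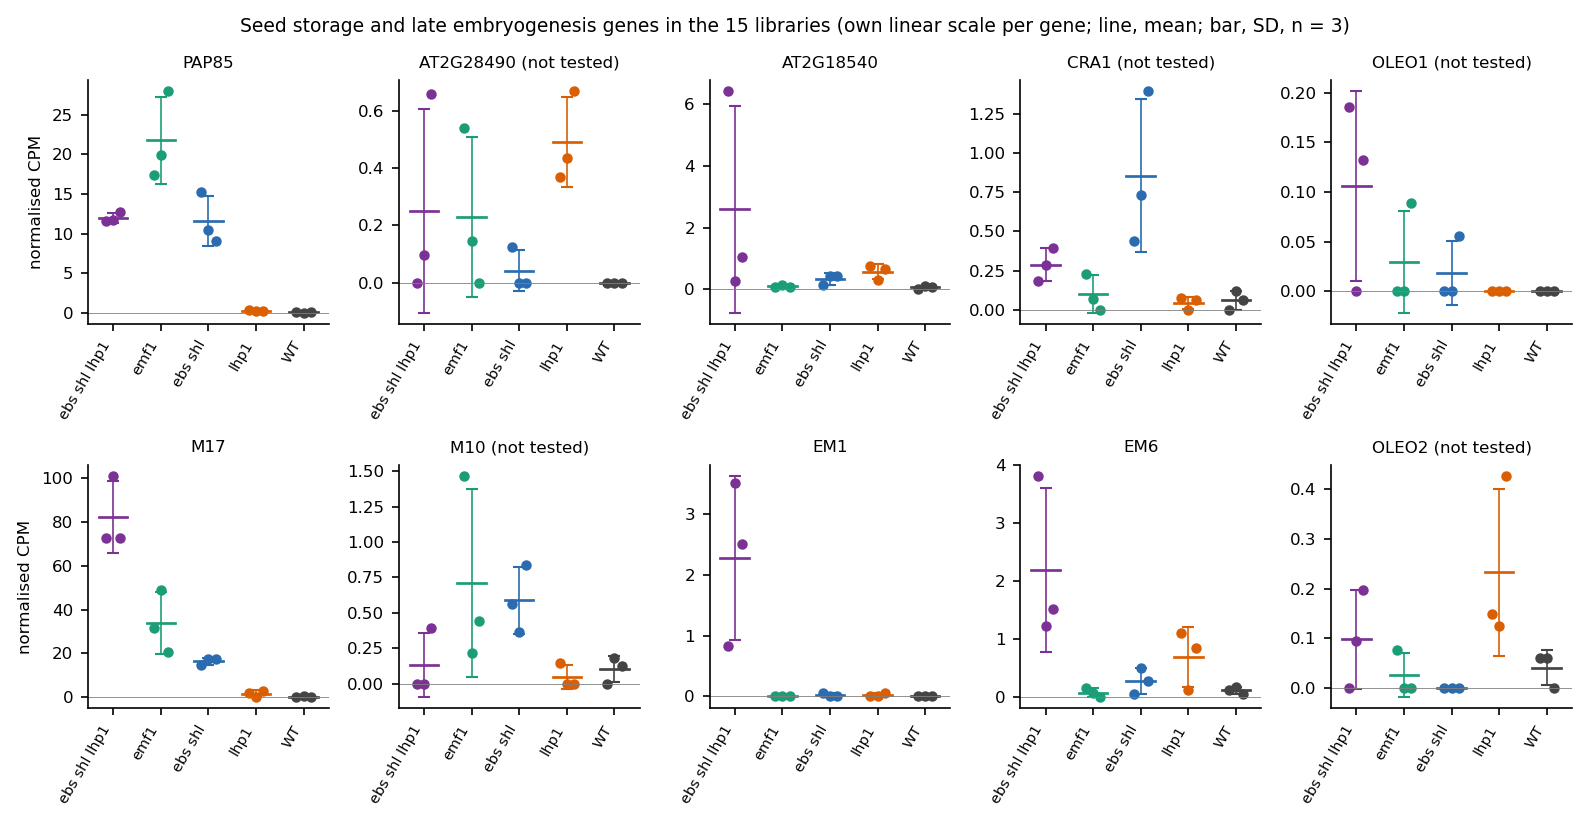
Normalised CPM (y axis, linear, with its own scale for each gene) of the 10 genes in the 5 genotypes. Points are the 3 libraries of a genotype, lines their mean and bars the SD; genes marked not tested did not pass the filter on low counts. PAP85 and M17 reach 28.0 and 101 CPM, whereas the oleosin genes stay below 0.5 CPM.

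Per kilobase of exon (TAIR10.1 gene models), levels can be set beside each other. In the labelled triple mutant M17 stood at 72.2 ± 14.4 CPM per kb, PAP85 at 7.08 ± 0.372, EM6 at 3.04 ± 1.97, EM1 at 2.47 ± 1.46 and AT2G18540 at 1.06 ± 1.37 (SD, n = 3 each). In emf1 M17 had 29.6 ± 12.4 and PAP85 12.8 ± 3.26 CPM per kb, and in the labelled double mutant 14.5 ± 1.46 and 6.83 ± 1.89. M17 was thus above PAP85 per unit length in these 3 mutants, with the widest gap in the labelled triple mutant.

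The labelled triple mutant and emf1, both prepared with the miRNeasy Micro kit, shared high PAP85 and M17 but not the other tested genes. Of the 5, 4 were higher and PAP85 was lower in the labelled triple mutant, where 23.6% of all tested loci were called higher and 20.5% lower. The median was 4.49 on the log2 scale for the 5 genes and 0.05 for all loci. Genes at low counts could pass the filter through the labelled triple mutant, as EM1 did. These counts and the median therefore describe the 5 genes and support nothing. PAP85 differed by a log2 fold change of -0.85 ± 0.22 SE (edgeR adjusted p = 0.0066), with no overlap between the groups. M17 differed by 1.28 ± 0.42 (edgeR adjusted p = 0.022), a call that was lost with DESeq2 (adjusted p = 0.21) and without repeat 2 of the labelled triple mutant or repeat 1 or 3 of emf1 (edgeR adjusted p = 0.084, 0.056 and 0.077). EM6 differed by 4.64 ± 0.91 (edgeR adjusted p = 0.0010), a ratio of 28.9 on 77 against 3 counts with a counting interval of 8.81 to 132. Without repeat 1 of the labelled triple mutant this was 3.94, and without repeat 1 of emf1 it was 5.49. AT2G18540 differed by 4.49 ± 1.08 (edgeR adjusted p = 0.0040), and by 2.60 without repeat 1 of the labelled triple mutant (adjusted p = 0.023).

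Against the labelled double mutant, 4 of the 5 tested genes were higher in the labelled triple mutant, where 32.8% of all loci were called higher, with a median of 2.89 for the 5 genes and -0.025 for all loci. Here too a gene could pass the filter through the labelled triple mutant, so the count and the median support nothing. PAP85 was not called, at 12.0 ± 0.631 against 11.6 ± 3.21 CPM (log2 fold change 0.05 ± 0.22 SE, edgeR adjusted p = 0.84). M17 was 4.98-fold (2.31 ± 0.43, edgeR adjusted p = 0.00032), EM6 7.69-fold (2.93 ± 0.71, adjusted p = 0.0023) and EM1 109-fold on 84 counts against 1, with a counting interval of 19.1 to 4378. Without repeat 1 of the labelled triple mutant the EM6 value was 2.31, and without repeat 2 of the labelled double mutant 3.56. AT2G18540 was 7.68-fold (2.89 ± 0.86, edgeR adjusted p = 0.0085), a call that rested on repeat 1 of the labelled triple mutant, since without it the log2 fold change was 1.08 (adjusted p = 0.162). CRA1, not tested, went the other way, at 0.289 ± 0.105 CPM in the labelled triple mutant against 0.855 ± 0.489 CPM in the labelled double mutant. This comparison too crosses the RNA kits.

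Between the labelled double mutant and lhp1, which share the RNA kit, 2 of the 5 genes, PAP85 and M17, were higher, with 3.67% of all loci called higher, and the Em genes were not called. PAP85 was 52.2-fold (log2 fold change 5.68 ± 0.36 SE, edgeR adjusted p = 1.0e-06) and M17 9.65-fold (3.27 ± 0.54, edgeR adjusted p = 0.0026). The M17 value was 2.70 without lhp1 repeat 2 and 3.98 without lhp1 repeat 3. For EM6 the labelled double mutant had 0.285 ± 0.225 CPM and lhp1 0.697 ± 0.512 CPM (SD, n = 3 each), which did not pass (log2 fold change -1.28 ± 0.78, edgeR adjusted p = 0.421). The interaction, which asks whether the step between the labelled triple and double mutants differs from that between lhp1 and WT, gave 0 calls among the 5 genes, where 56.9% of all loci were called. Only the first of these steps crosses the RNA kits, so genotype and kit cannot be told apart in the interaction. By edgeR 0 of the 5 had an unadjusted p under 0.05, and DESeq2 called 1, EM1 (adjusted p = 0.038). For M17 the estimate was -0.12 ± 0.87 and for PAP85 -1.27 ± 0.81 on the log2 scale, intervals too wide to show that the steps were alike. For EM1, with 84, 1, 1 and 0 counts in the labelled triple mutant, the labelled double mutant, lhp1 and WT, the fitted SE of 39.2 leaves no usable estimate.

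**Figure D4:**
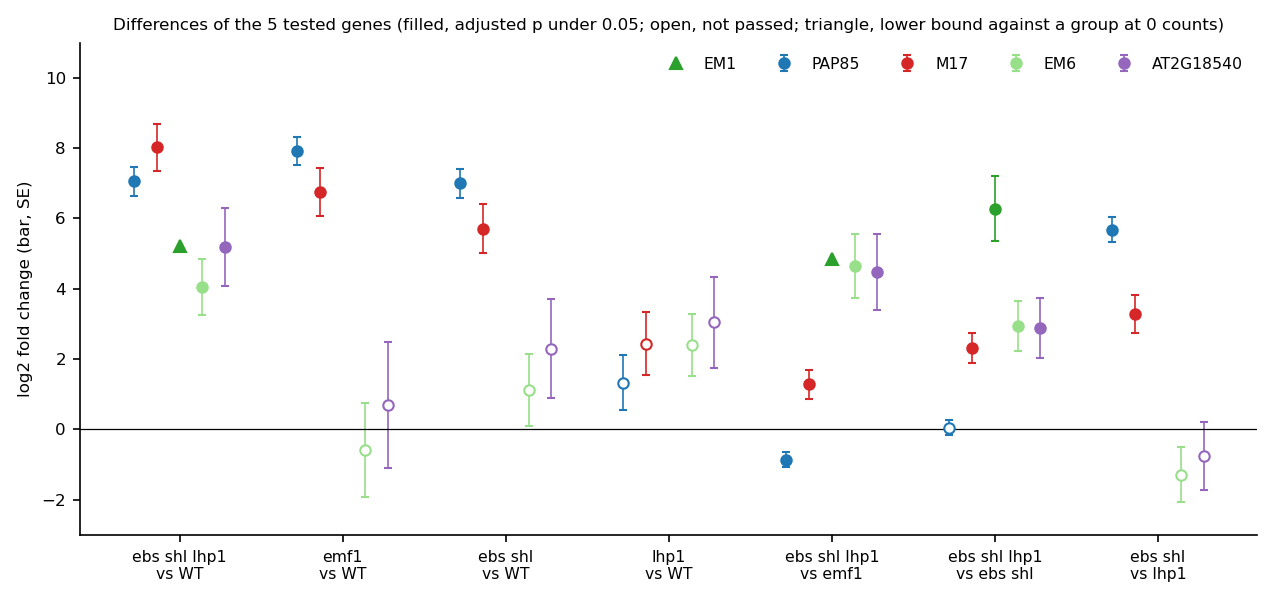
Log2 fold change (y axis) of the 5 tested genes in 7 comparisons (x axis), with bars of 1 SE; filled symbols passed, open ones did not, and triangles are lower bounds for EM1 against groups without a count. Pairs in which both groups had 3 counts or fewer are not drawn. PAP85 is the one gene below 0 in ebs shl lhp1 vs emf1, and no symbol of lhp1 vs WT is filled.

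Of 19 other late embryogenesis genes, 12 were tested, and 11 of 12 were higher in the labelled triple mutant than in WT, with 0 lower and a median log2 fold change of 4.20, where 34.6% of all loci were higher and the median of all was -0.017. Against emf1, 12 of the 12 tested genes were higher in the labelled triple mutant (23.6% of all loci), and against the labelled double mutant 11 were (32.8%). Against WT, emf1 had 2 higher and 2 lower (30.7% and 33.9% of all loci), the labelled double mutant 2 higher and 0 lower (5.31% and 2.52%), and lhp1 1 higher and 0 lower (1.31% in either direction). The other 7 genes did not pass the filter, and a gene low elsewhere could pass it through the labelled triple mutant, so these counts and the median describe the tested genes and support nothing. LEA18 had 10.4, 8.92 and 10.5 CPM in the labelled triple mutant and 0.629, 3.00 and 2.73 CPM in the labelled double mutant, against 0, 0.244 and 0.0628 CPM in WT (edgeR adjusted p = 1.6e-05 and 0.013). RAB18, a dehydrin that responds to abscisic acid, was the one called in lhp1, at 42.7, 31.6 and 44.3 CPM, against 7.43, 16.2 and 15.02 CPM in WT (log2 fold change 1.62 ± 0.25 SE, edgeR adjusted p = 0.0035). LEA7 was lower in emf1, at 0.0772, 0 and 0.0889 CPM, against 0.725, 0.733 and 2.07 CPM in WT (log2 fold change -4.26 ± 1.16, edgeR adjusted p = 0.0053). RAB18 and LEA7, like AT3G01570, CLF and PKL described next, overlap genes on the opposite strand. Their levels are uncertain for the same reason as those of the oleosin genes. The overlapping genes held at most 1 count in any library for LEA7 and 5 for PKL. They held up to 359 for RAB18, 672 for AT3G01570 and 958 for CLF.

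Several of these late genes were highest in a single library of the labelled triple mutant. AT3G17520 had 22.0, 1.23 and 6.60 CPM there, against 0, 0.244 and 0.0628 CPM in WT, and AT3G02480 had 31.5, 5.41 and 2.58 CPM, against 0.181, 0.305 and 0.251 CPM in WT. LEA4-5 had 19.0, 0.854 and 3.90 CPM in the labelled triple mutant, against 0.154, 0 and 0 CPM in emf1. Repeat 1 is the high one in each case. Of the 18 late or storage genes that passed the filter, the highest labelled triple-mutant library was repeat 1 for 8, repeat 2 for 3 and repeat 3 for 7. Without repeat 1, the number of other late embryogenesis genes called higher than WT was 11 of 12, without repeat 2 it was 11 of 12, and without repeat 3 it was 9 of 11. Without repeat 1, LEA7 lost its call (edgeR adjusted p = 0.212) and AT3G53040 gained one (adjusted p = 0.023). Against emf1, AT3G53040 was not called without repeat 2 or 3 (edgeR adjusted p = 0.054 and 0.398), nor AT2G42560 without repeat 3 (adjusted p = 0.107). The log2 fold change against WT without repeat 1 was 5.19 for AT3G17520 (6.48 with it), 3.97 for AT3G02480 (5.68) and 1.81 for LEA4-5 (3.47).

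**Figure D5:**
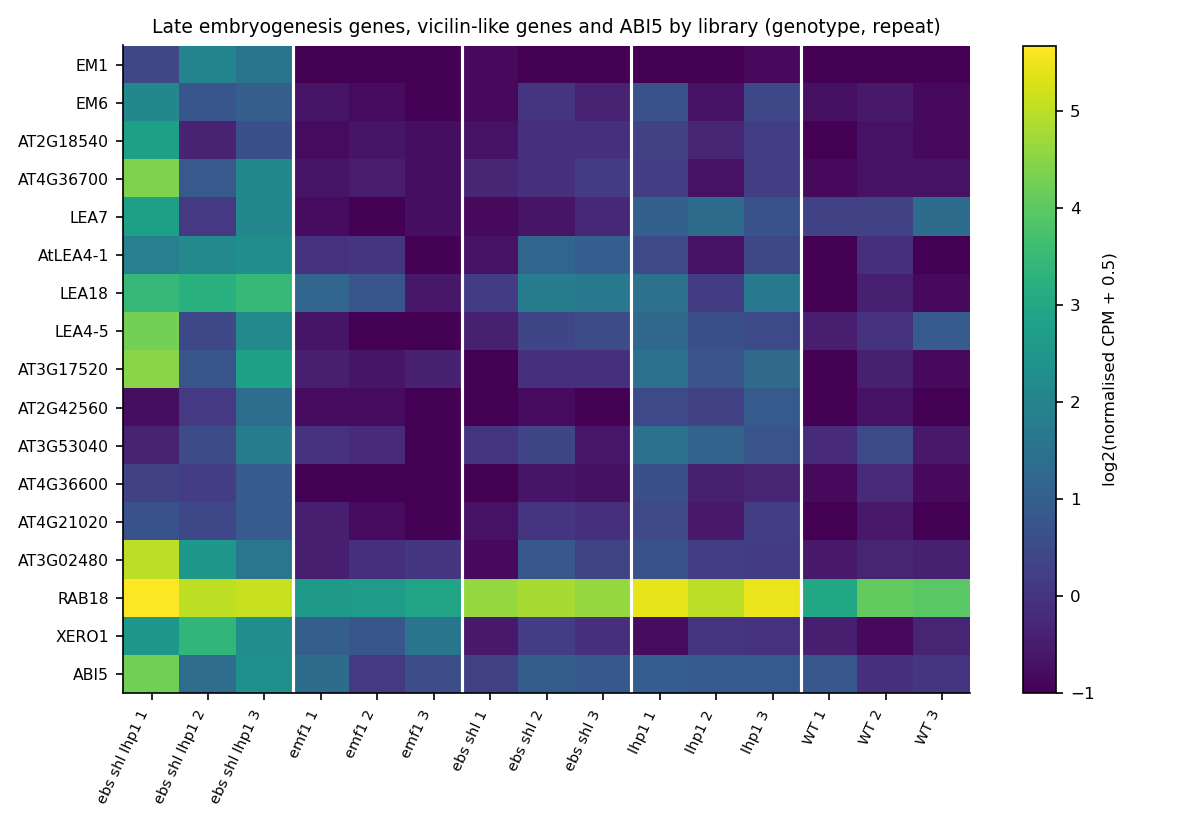
Log2(normalised CPM + 0.5) as colour in the 15 libraries (columns, by genotype and repeat) for EM1, EM6 and AT2G18540, the other storage and late embryogenesis genes that passed the filter, and ABI5 (rows). The 3 left columns, the labelled triple mutant, hold most of the bright cells, with AT3G17520, LEA4-5, AT4G36700 and ABI5 brightest in repeat 1.

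Of 9 further storage loci only AT4G36700, a cupin gene, was tested and it was higher in the labelled triple mutant, with 20.2, 1.33 and 3.76 CPM in the labelled triple mutant, against 0.0604, 0.122 and 0.126 CPM in WT (log2 fold change 6.24 ± 1.02 SE, edgeR adjusted p = 9.1e-05, and 4.57 without repeat 1). The other 8, cruciferin and albumin genes that dominate seed messenger RNA, held 16 counts together over the 15 libraries, with at most 2 in any gene and library. Of 9 other oil body and seed oil genes, 3 were tested. TAG1, a diacylglycerol acyltransferase of oil synthesis, was higher in the labelled triple mutant at 11.55 ± 3.64 CPM, against 3.65 ± 0.358 CPM in WT, and the oleosin gene OLEO4 was lower at 0.529 ± 0.446 CPM, against 1.56 ± 0.270 CPM in WT (edgeR adjusted p = 0.00019 and 0.010). With the oleosin-family gene AT3G01570, this made 2 of 3 higher and 1 lower, where 34.6% and 35.7% of all loci were. Without repeat 3 of the labelled triple mutant it became 1 of 2 higher and 0 lower.

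Among 16 regulators of seed maturation, 8 were tested. LEC1, LEC2, FUS3 and ABI3, the master regulators of embryo maturation, did not pass the filter, with at most 13 counts in any genotype, which was ABI3 in the labelled triple mutant. In the labelled triple mutant 3 of the 8 were higher than in WT and 2 were lower, where 34.6% and 35.7% of all loci were. ABI5 had 18.4, 2.09 and 4.62 CPM there, against 1.27, 0.427 and 0.503 CPM in WT (log2 fold change 3.49 ± 0.71 SE, edgeR adjusted p = 0.00061, and 2.21 without repeat 1), and DOG1, a seed dormancy gene, had 7.44, 8.73 and 6.14 CPM, against 1.69, 2.87 and 1.38 CPM in WT (adjusted p = 0.00011). BBM, an embryo and root stem cell regulator, was lower at 0.186, 0.380 and 0.132 CPM, against 3.20, 2.26 and 2.95 CPM in WT (edgeR adjusted p = 7.4e-05). In emf1 2 were higher and 3 lower (33.9% of all loci were lower), in the labelled double mutant 0 were higher and 1, AGL15, lower (2.52% of all loci were lower), and in lhp1 0 of 8 were called. Against emf1, 5 of 8 were higher in the labelled triple mutant, where 23.6% of all loci were, but 2 without its repeat 1 and 2 higher with 1 lower without its repeat 2.

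All 12 repressors of the seed programme in the list, among them Polycomb subunits, VAL genes and PKL, passed the filter. In the labelled triple mutant 3 were higher than in WT and 4 lower, where 34.6% and 35.7% of all loci were, and in emf1 4 were higher and 4 lower, where 30.7% and 33.9% were, so these shares are near those of all loci. In the labelled double mutant and in lhp1 0 of the 12 were called, where 5.31% of all loci were higher and 2.52% lower in the labelled double mutant and 1.31% were called in lhp1. CLF, a Polycomb methyltransferase, had 11.4, 12.2 and 14.1 CPM in the labelled triple mutant and 13.4, 18.1 and 15.7 CPM in emf1, against 32.2, 27.9 and 29.5 CPM in WT (edgeR adjusted p = 8.2e-07 and 1.5e-05). PKL, a chromatin remodeller that keeps embryo genes off in seedlings, had 76.3, 63.0 and 66.4 CPM in the labelled triple mutant, against 111, 113 and 118 CPM in WT (edgeR adjusted p = 2.1e-06). ASIL1, a repressor of seed genes in seedlings, moved the other way, at 62.4, 67.1 and 56.7 CPM in the labelled triple mutant and 47.6, 44.7 and 50.4 CPM in emf1, against 30.2, 33.3 and 26.3 CPM in WT (edgeR adjusted p = 7.0e-07 and 5.4e-05).

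Markers of other tissues bear on what the libraries hold. Of 6 seed coat genes, 5 had 3 counts or fewer in each of the labelled triple mutant, emf1, lhp1 and WT (4 in the labelled double mutant). The sixth, MUM2, was present in every genotype, at 165, 112 and 126 CPM in the labelled triple mutant, against 48.8, 63.1 and 51.7 CPM in WT. The 6 endosperm genes summed to 2.79, 13.6 and 2.44 CPM in the labelled triple mutant, with PHE1 alone at 9.49 CPM in its repeat 2. Their sums were 0.850 to 1.16 CPM in emf1, 0.951 to 1.38 CPM in the labelled double mutant and 0.519 to 0.684 CPM in lhp1, against 0.244 to 0.544 CPM in WT. Of 5 anther and pollen genes, 0 passed the filter. They summed to 0.330 to 1.23 CPM in the labelled triple mutant, 0.232 to 0.356 CPM in emf1, 0.146 to 0.566 CPM in the labelled double mutant and 0.122 to 0.622 CPM in lhp1, against 0 to 0.121 CPM in WT. The 4 green leaf genes summed to 35622 to 42225 CPM in the labelled triple mutant, 57532 to 64168 CPM in emf1, 36146 to 42619 CPM in the labelled double mutant and 33904 to 38618 CPM in lhp1, against 40277 to 42373 CPM in WT. They stood highest in emf1, where 3 of 4 were called higher than in WT (30.7% of all loci). In the labelled triple mutant 4 of 4 were called lower than in emf1 (20.5% of all loci). The 5 root genes summed to 3.63 ± 2.13 CPM in the labelled triple mutant and 2.59 ± 0.847 CPM in emf1, against 52.9 ± 17.2 CPM in WT (SD, n = 3 each). In both mutants 5 of 5 were called lower, where 35.7% and 33.9% of all loci were. In the labelled double mutant, where PAP85 and M17 were also high, the root genes summed to 48.7 ± 4.96 CPM, with 1 of 5 called lower (2.52% of all loci). The part of tissue makeup in the other results was not tested.

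By the root mean square difference of centred log2(CPM + 0.5) over the 15 libraries, the gene nearest to PAP85 was MLO9, at 0.775. MLO9 had 17.9 ± 3.26 CPM in the labelled triple mutant, 19.8 ± 6.52 in emf1, 4.79 ± 1.17 in the labelled double mutant and 0.429 ± 0.222 in lhp1, against 0.387 ± 0.406 CPM in WT (SD, n = 3 each). The gene nearest to M17 was the floral homeotic gene PI, at 0.714, with 347 ± 39.5 CPM in the labelled triple mutant, 158 ± 18.6 in emf1, 80.9 ± 8.48 in the labelled double mutant and 19.1 ± 3.95 in lhp1, against 3.09 ± 0.608 CPM in WT. The squalene epoxidase gene SQE6 was second for both, at 0.861 and 0.872. For AT2G18540 the nearest was its neighbour on the chromosome, HB21 (AT2G18550), at 0.387, followed by CYS2 at 0.473. For EM6 they were BGLU19 at 0.337 and LTI65 at 0.442, and for EM1 MAP18 at 0.350 and DJ1A at 0.360. Low counts leave little spread in the last 3 genes, so their small distances cannot be set against those of PAP85 and M17. CYS2 and BGLU19 overlap genes on the opposite strand that held up to 765 and 162 counts in a library, so their levels are uncertain too.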

How the data were processed

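Deposited values are the authors' counts of reads per annotated locus, 1 file for each of the 15 libraries. A stranded mRNA library kit was used, per the labels' protocols. TopHat2 2.1.1, HTSeq, edgeR and the TAIR10 build were used, per the submitters' processing notes, and the strand setting is not given in the sources used here. All 279 organelle loci had 0 counts in every library.

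The analysis used edgeR 4.0.16 in R 4.3.3. Of 33602 loci 20477 passed filterByExpr, and TMM factors were 0.817 to 1.146. All 15 libraries were fitted together with 1 mean per genotype (common biological coefficient of variation 16.35%), tested by edgeR's quasi-likelihood F test and adjusted by Benjamini-Hochberg over all tested loci. Each SE follows from the log2 fold change and its F value. Ratios are of mean normalised CPM. Where the lower group held 0 counts the ratio uses a floor of 3 counts over its 3 libraries, and where it held 1 to 3 counts an exact 95% interval is given; both cover counting error only. The fit was tested on simulated data, with changes put only into genes of higher mean CPM than EM1, EM6 and AT2G18540. That test therefore does not cover genes at such low counts.

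The 10 genes and all lists were chosen with earlier results of these data known. Named list genes are among the up to 3 called genes per list and comparison with the largest fold change. The 2 nearest genes are given per tested gene, sought among tested loci with a gene symbol outside the 10. The untested regulators were named to account for their list. Alternatives were other scalings, no filter, DESeq2 1.42.0, fits on fewer genotypes, the repeat number as a block, and leaving out each library. Gene models, exon lengths and sequences come from RefSeq TAIR10.1, and transcripts were compared with BLAST 2.17.0. No 2 repeats of a genotype agreed within counting noise (chi-square over degrees of freedom 4.48 to 26.65).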

Additional observations from a re-analysis of the deposited data

How the results depend on the processing

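For the 5 tested genes, 274 log2 fold changes were recomputed under other scalings, filters, tools and sets of libraries. Of these, 272 kept their side of the threshold, 1 lost its call (M17, labelled triple mutant against emf1, with DESeq2), 1 gained a call and 0 called values reversed. Uncalled values near 0 could change sign. PAP85 in the labelled triple against the labelled double mutant ranged from -0.21 to 0.06. The gained call was EM1 in the interaction, which took the number called to 1 with DESeq2, against 0 otherwise. With no filter on low counts, 4 genes were called in emf1 against WT, since AT2G28490 and M10 were then tested too. CPM by library totals put PAP85 at 11.003 CPM in the labelled triple mutant, against 12.0 CPM with TMM, and 49 of the 50 levels moved by less than 1 SD. Leaving out each library changed the call of 4 of 270 values, all losses described with their genes. Numbers of the 10 genes called then ranged from 5 to 6 in the labelled triple mutant against WT, 2 to 3 in emf1, 2 to 3 in the labelled double mutant, 4 to 6 in the labelled triple mutant against emf1, 3 to 5 against the labelled double mutant, 2 to 3 in the labelled double mutant against lhp1, and 0 to 0 in lhp1 and in the interaction; higher numbers came with 6 or 7 genes tested instead of 5. In fits of only the genotypes compared, where 4 genes could be tested, 4 were called in the labelled triple mutant against WT, 4 against emf1 and 3 against the labelled double mutant.

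Repeat numbers did not pair the samples, with r of -0.333 to 0.175 over 30 same-numbered pairs and 0 of 15 libraries closest to their own number. With the replicate block the numbers called were 5, 2, 2 and 0 in the labelled triple mutant, emf1, the labelled double mutant and lhp1 against WT, 5 against emf1, 4 against the labelled double mutant, 2 in the labelled double mutant against lhp1 and 0 in the interaction, as without it.

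Over all loci, 269 were called in lhp1 against WT, but 524 with DESeq2, 471 in a fit of these 2 genotypes, 691 in a fit of 1 RNA kit and 144 to 165 without WT repeat 2 or 3 or any lhp1 library. The labelled double mutant had 1604 calls against WT, but 2593 in the fit of 1 kit and 950 to 1045 without any of its libraries or WT repeat 3, and 1036 against lhp1, but 2274 in the fit of 2 genotypes, 2053 in that of 1 kit and 564 to 689 without single libraries. Depth limits the 5 untested genes: 1 count was 0.0615 to 0.0852 CPM.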

Other observations

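The dehydrin gene XERO1 followed another order than RAB18. XERO1 had 5.397, 10.1 and 4.42 CPM in the labelled triple mutant, 1.54, 1.24 and 2.49 CPM in emf1 and 0.0742, 0.498 and 0.488 CPM in lhp1, against 0.242, 0.0611 and 0.314 CPM in WT (edgeR adjusted p = 4.7e-06 in the labelled triple mutant and 0.00079 in emf1). RAB18 had 50.4, 32.2 and 34.1 CPM in the labelled triple mutant, 5.48, 5.90 and 6.94 CPM in emf1 and 42.7, 31.6 and 44.3 CPM in lhp1, against 7.43, 16.2 and 15.02 CPM in WT. The late embryogenesis gene AT2G42560 had 0, 0.0732 and 0 CPM in the labelled double mutant, where it was called lower, against 0.890, 0.747 and 1.34 CPM in lhp1 (log2 fold change -5.07 ± 1.202 SE, edgeR adjusted p = 0.025).

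Summed over the 19 other late embryogenesis genes, levels were 154, 66.8 and 88.3 CPM in the labelled triple mutant, 10.97, 10.1 and 10.8 CPM in emf1, 26.7, 37.7 and 33.1 CPM in the labelled double mutant and 60.7, 41.8 and 57.4 CPM in lhp1, against 9.85, 21.4 and 19.9 CPM in WT. The lhp1 libraries thus lay above those of WT and emf1 in this sum without overlap, as did those of the labelled double and triple mutants. In lhp1 RAB18 gave most of the sum. No test was made of the sum.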
